A study of Mus musculus with 8 samples.

Results

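Divergent promoter pairs are places where a pair of protein-coding genes on opposite strands start close together and are transcribed away from each other. In GENCODE M21 on mm10, 754 such pairs had gene 5′ ends at most 1000 bp apart, and they held 1487 of the 21938 protein-coding genes on the 21 chromosomes with peaks. The region scored for each pair was the interval between the gene ends with 500 bp on each side, and the 754 regions formed 733 that did not overlap one another. For comparison there were 19174 single promoters, each the 500 bp on either side of the 5′ end of a coding gene that had no other coding 5′ end within 1000 bp. A pair is written with the gene on the minus strand first. Chromatin accessibility was profiled by ATAC-seq, which uses a transposase to insert adapters into accessible DNA, in SN4741, a mouse line from embryonic substantia nigra with a temperature-sensitive T antigen driven by a tyrosine hydroxylase promoter. Undifferentiated cells at the permissive temperature (37 °C) were grown in 10% serum, and differentiated cells spent 48 h at the non-permissive temperature (39 °C) in 0.5% serum. Both groups carry the T antigen and come from the same line, whose karyotype the study describes as polyploid and unstable. Temperature and serum cannot be told apart in any comparison of the groups. Each group had 4 libraries of 50000 cells, and nothing in the labels says whether they came from separate cultures, so the p-values measure the spread between these libraries, which may be technical.

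Divergent promoters are a common arrangement in mammalian genomes. The DNA between the genes is usually free of nucleosomes, rich in CpG dinucleotides and poor in TATA boxes, and RNA polymerase starts on both strands from separate sites at its edges. Genes of DNA repair, of mitochondria and of the core histones are often arranged in this way, and the members of a pair can be expressed together or apart.

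Sequences between the gene ends are shown for 9 pairs on which the results turn: 3 known pairs called in every library, 1 known pair called in none, 2 called only at 37 °C, and 3 whose rank among promoters differed between temperatures. Each runs 5′ to 3′ on the plus strand of mm10 and leaves out both end bases, so the first gene of the pair reads away to the left and the second to the right. Capitals mark letter matches, on either strand, to 14 short motifs. Those that occur here are the CCAAT box bound by NFY (CCAAT), the GC box of SP and KLF factors (GGGCGG), the ETS motif (CCGGAAG), the NRF1 motif (GCGCNTGCG), the cAMP response element (TGACGTCA) and the heat shock factor motif (GAANNTTC). No mismatch was allowed, and a match is a description of the letters, not a binding site. Overlapping matches run together, as in the CCAAT and GC boxes of Hmmr/Nudcd2 and the ETS motifs on both strands of Trmt6/Mcm8.
Brca1/Nbr1: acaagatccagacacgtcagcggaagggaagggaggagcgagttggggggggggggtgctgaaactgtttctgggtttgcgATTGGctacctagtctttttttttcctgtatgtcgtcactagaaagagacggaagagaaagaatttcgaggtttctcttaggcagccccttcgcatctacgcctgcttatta
Mrps12/Sars2: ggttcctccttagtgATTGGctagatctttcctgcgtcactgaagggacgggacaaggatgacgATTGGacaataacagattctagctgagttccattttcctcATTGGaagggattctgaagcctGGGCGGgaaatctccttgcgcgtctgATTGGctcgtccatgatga
Sdhd/Timm8b: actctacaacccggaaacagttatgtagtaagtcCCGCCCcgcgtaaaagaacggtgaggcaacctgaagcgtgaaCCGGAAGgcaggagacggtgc
Col4a4/Col4a3: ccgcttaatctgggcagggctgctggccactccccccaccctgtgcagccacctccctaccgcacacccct
Nr2e1/Ostm1: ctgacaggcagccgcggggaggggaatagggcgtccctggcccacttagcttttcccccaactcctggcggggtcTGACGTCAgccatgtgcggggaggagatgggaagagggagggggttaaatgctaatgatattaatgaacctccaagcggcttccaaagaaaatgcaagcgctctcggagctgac
Best1/Rab3il1: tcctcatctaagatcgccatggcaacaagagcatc
Hist1h2ag/Hist1h2bj: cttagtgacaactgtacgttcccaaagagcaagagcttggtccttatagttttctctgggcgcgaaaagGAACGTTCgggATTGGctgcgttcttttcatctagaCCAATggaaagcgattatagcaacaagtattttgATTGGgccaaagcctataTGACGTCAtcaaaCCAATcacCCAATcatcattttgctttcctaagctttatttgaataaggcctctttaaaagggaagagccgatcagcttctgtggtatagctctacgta
Trmt6/Mcm8: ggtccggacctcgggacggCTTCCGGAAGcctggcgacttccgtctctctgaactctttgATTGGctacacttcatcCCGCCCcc
Hmmr/Nudcd2: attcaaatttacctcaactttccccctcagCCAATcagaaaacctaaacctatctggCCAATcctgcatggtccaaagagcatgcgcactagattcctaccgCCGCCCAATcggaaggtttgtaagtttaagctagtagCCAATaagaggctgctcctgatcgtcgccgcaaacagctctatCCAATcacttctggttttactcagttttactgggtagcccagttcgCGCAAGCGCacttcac

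The intervals shown run from chr11:101551956-101552148 for Brca1/Nbr1, chr7:28741821-28741991 for Mrps12/Sars2 and chr9:50603813-50603909 for Sdhd/Timm8b. Col4a4/Col4a3 lies at chr1:82586850-82586920, Nr2e1/Ostm1 at chr10:42583633-42583821 and Best1/Rab3il1 at chr19:10001634-10001668. Hist1h2ag/Hist1h2bj lies at chr13:22042945-22043213, Trmt6/Mcm8 at chr2:132816056-132816140 and Hmmr/Nudcd2 at chr11:40733423-40733666. The annotation places each between the 5′ ends of its genes, outside both gene bodies. The uncalled Col4a4/Col4a3 interval held no match to any of the motifs and 2 CpG dinucleotides in 71 bases, whereas the Sdhd/Timm8b interval held 8 in 97 bases.

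The peak caller kept 49.8 to 169 M fragments per library, with replicates 1 and 4 at 37 °C far deeper than the rest, and the lists held 74026 to 92013 peaks at 37 °C and 54845 to 68410 at 39 °C. Of the 19928 coding promoters scored, 51.1% had a peak in all 8 libraries. Of the markers of neural precursors, 6 of 8 had a promoter peak in all 8 libraries (Nes, Sox2, Vim, Msi1, Notch1 and Hes1), and Pax6 and Fabp7 had none. Of 10 dopaminergic neuron markers, 4 had one in all 8 (Nr4a2, Pitx3, Foxa2 and En1), and Th, Slc18a2 and Aldh1a1 had none. Fibroblast or mesenchymal markers were covered for 5 of 7 genes, neuron markers for 2 of 6 and astrocyte markers for 2 of 4 (Gfap and Slc1a3). In each of 4 other classes 1 marker was covered, namely Mbp of 5 for oligodendrocytes, Tmem119 of 5 for microglia, Tek of 4 for endothelium and Krt8 of 4 for epithelium. A peak shows accessible DNA, not expression.

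Nearly all pairs lay under a peak, whichever the temperature. A region was called in a library when a peak overlapped it by at least 1 bp, and 713 of the 754 pairs (94.6%, Wilson 95% interval 92.7 to 96.0%, which covers counting error only) were called in all 8 libraries. Only 29 pairs were called in none and 12 in some. Single promoters were called in all 8 libraries in 9479 of 19174 cases (49.4%) and in none in 7864 (41.0%). Among promoters called at least once, the share called in all 8 libraries was 98.3% for pairs and 83.8% for single promoters. The 457 pairs of coding genes whose ends overlap head to head, which are not members, resembled the divergent ones, with 431 (94.3%) called in all 8 libraries.

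At 37 °C, replicates 1 to 4 called 723, 721, 720 and 723 pairs, and at 39 °C they called 716, 716, 716 and 713. In every library pairs were called more often than single promoters. The difference was 41.3 percentage points on average over 8 libraries and ran from 38.1 to 44.5 (exact sign-flip permutation test over libraries, two-sided, p = 0.00781, the smallest that 8 libraries allow). Regions of pairs are longer than those of single promoters by the distance between the ends, but a fixed window of 1000 bp around the midpoint gave the same mean difference, 41.3 points. The 848 single promoters with a gene of another type, such as a long non-coding RNA, starting upstream on the other strand were called in 80.3% of cases on average, and pairs still exceeded them by 15.02 points (13.8 to 15.7, higher in 8 of 8 libraries, exact sign-flip p = 0.00781).

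**Figure D1:**
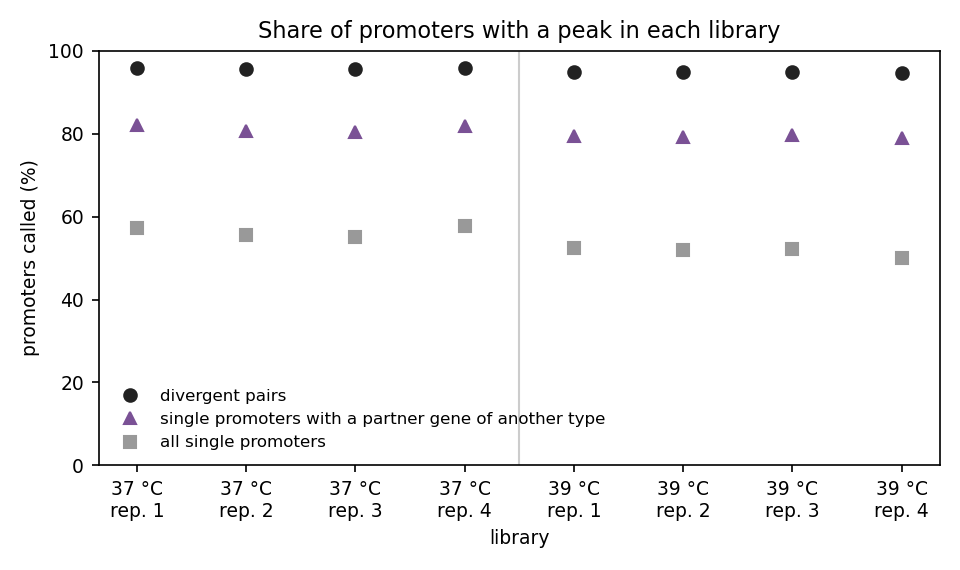
Share of promoters with a peak, in percent of the class, for each of the 8 libraries, with divergent pairs as circles, single promoters with an upstream partner gene of another type as triangles and all single promoters as squares. Pairs sit between 94.6 and 95.9% in every library, single promoters between 50.1 and 57.8%.

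CpG content differed between the classes and accompanied the calls. The median ratio of observed to expected CpG within 250 bp on either side of the midpoint was 0.835 for pairs and 0.510 for single promoters around their end. It was 0.843 for pairs called in all 8 libraries and 0.333 for those called in none. In 5 strata of equal size of all promoters by this ratio, pairs were called more often than single promoters in each stratum and in 8 of 8 libraries (exact sign-flip p = 0.00781 for each of the 5 comparisons). The excess was 22.9 points in the lowest stratum, 33.2 and 32.4 in the next 2, and 8.83 and 4.73 in the highest 2. In the lowest stratum 32.7% of 13 pairs were called against 9.75% of single promoters, and in the middle stratum 91.4% of 111 pairs against 59.1%. In the highest stratum, which held 332 pairs, the shares were 99.7 and 94.96%. With single promoters weighted to the CpG content of the pairs, the difference over all promoters was 11.4 points. Single promoters with a partner gene also had more CpG than those without (median ratio 0.814 and 0.487). In the 2 lowest strata they were called in 8.70 and 20.5% of cases, against 9.77 and 23.4% of those without a partner, and in the 3 higher strata in 72.6, 92.1 and 96.9%, against 58.6, 88.4 and 94.8%.

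**Figure D2:**
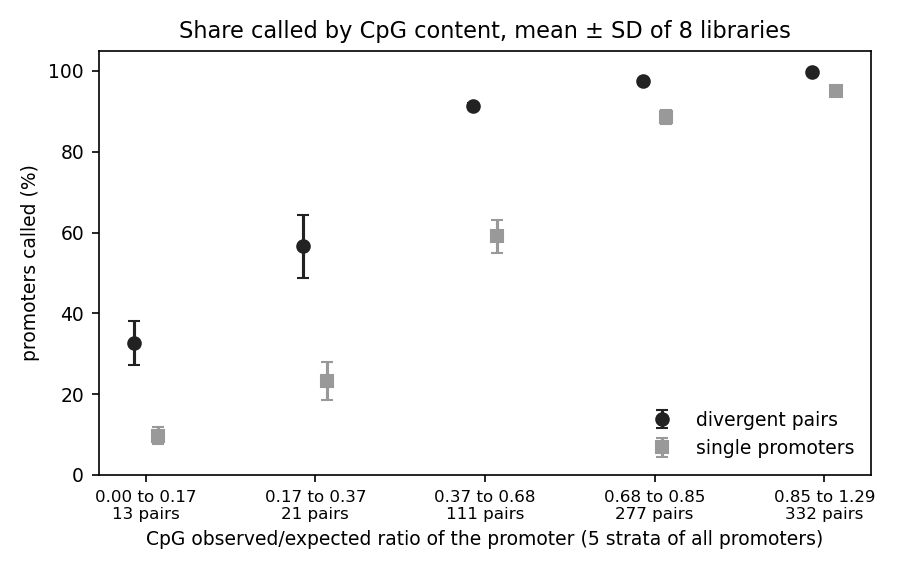
Share of promoters called, in percent, in 5 strata of all promoters by the ratio of observed to expected CpG, for divergent pairs (circles) and single promoters (squares). Points are means and bars SDs over 8 libraries. The classes lie 22.9, 33.2, 32.4, 8.83 and 4.73 points apart from the lowest stratum to the highest.

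Peaks over pairs also ranked higher and were wider. Each pair was given the peak with the highest −log10 q over its region, and the percentile of that peak in its own list. A percentile leaves out the size of −log10 q, but it depends on how many peaks the list holds. The 2 deep libraries, whose lists were also the longest, had the highest median percentiles for pairs, 94.6 and 94.9. The median percentile of called pairs was 94.3 ± 0.476 at 37 °C and 92.7 ± 0.600 at 39 °C (SD, n = 4 libraries each). It exceeded that of called single promoters by 5.53 points on average (5.13 to 6.20, higher in 8 of 8 libraries, exact sign-flip p = 0.00781). The excess was 3.25 points over single promoters weighted by CpG content and 1.02 points over those with a partner gene of another type (exact sign-flip p = 0.00781 for each). In the top 10% of their list lay 75.02% of called pairs and 46.5% of called single promoters at 37 °C, and 64.2 and 40.3% at 39 °C. The median peak over a pair was 2633 ± 250 bp wide at 37 °C and 2282 ± 160 bp at 39 °C. Pairs exceeded single promoters by 355 bp (285 to 418.5, 8 of 8 libraries, p = 0.00781 by the exact sign-flip test). With CpG weighting the excess was 233 bp. Against single promoters with a partner of another type the excess was 29.2 bp, with 7 of 8 libraries higher, and did not pass (exact sign-flip p = 0.0547).

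The shape of the peak differed from that at a single promoter. One peak covered both gene ends in 98.3% of called pairs at 37 °C and 97.8% at 39 °C, and at most 2 pairs in any library lay under more than 1 peak. Past each gene end the peak reached into the gene by a median of 1135 bp on average over libraries, against 1288 bp at single promoters, a difference of −153 bp that had the same sign in 8 of 8 libraries (exact sign-flip p = 0.00781). Single promoters had a further 724 bp on the upstream side. The summit of a single promoter lay 48.0 bp inside the gene in the median. Over pairs the summit lay a median of 52.9 bp from the nearer gene end and 79.1 bp from the midpoint.

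The position of the summit varied with the distance between the ends. The median distance was 129.5 bp (quartiles 67 and 240, range 1 to 987), and 618 pairs (82.0%) had ends at most 300 bp apart. The summit lay between the ends in 8.72% of called pairs with ends 1 to 50 bp apart, in 44.1% of those 101 to 200 bp apart and in 69.9% of those 201 to 500 bp apart. Longer intervals take up more of the peak, with a median distance of 1.42% of the median peak width in the closest bin, 11.1% at 201 to 500 bp and 24.3% beyond, and the shares were not adjusted for this. Among pairs 501 to 1000 bp apart it was 52.3%, and the share with 1 peak over both ends was 84.1% against 98.9 to 99.8% at shorter distances. The median percentile was 91.0 for the closest ends, 95.6 for 201 to 500 bp and 92.3 beyond that. Over the 713 pairs called in all 8 libraries the rank correlation of distance with mean percentile was 0.21 and with mean width 0.15, and that of width with percentile was 0.48. These values describe pairs that share the same libraries. At the edge of the rule, 14 of the 16 pairs with ends 810 to 987 bp apart were called in all 8 libraries, as were 17 of the 20 pairs just outside it, with ends 1007 to 1199 bp apart.

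**Figure D3:**
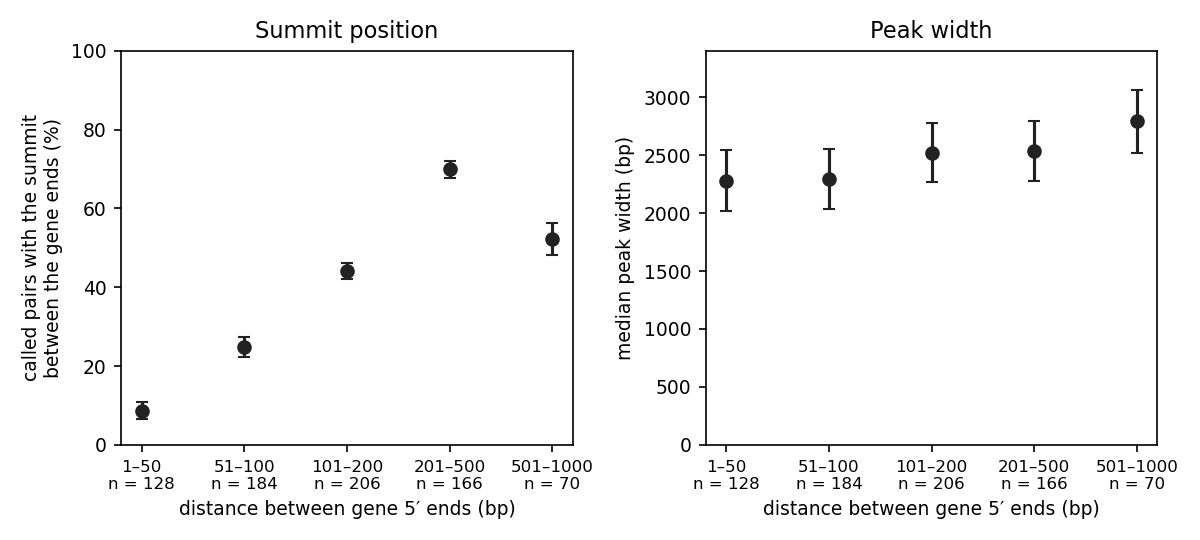
Left, share of called pairs whose peak summit lies between the gene 5′ ends, in percent, and right, median peak width in bp, both by distance between the ends in bp. Points are means and bars SDs over 8 libraries, with the number of pairs under each bin. The summit share goes from 8.72% in the closest bin to 69.9% at 201 to 500 bp, and the width from 2280 to 2790 bp across the bins.

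Known divergent pairs were mostly called, like the class as a whole. Of 25 pairs listed from general knowledge, 12 met the rule by their symbols and 11 of them were called in all 8 libraries, as were 94.6% of all pairs. Mcm4/Prkdc, a replicative helicase subunit with the catalytic subunit of the DNA-dependent protein kinase, had the highest mean percentile of them, 99.6 ± 0.0957 (SD, n = 8 libraries). Brca1/Nbr1 (Brca1 acts in homologous recombination, Nbr1 in selective autophagy) stood at 98.0 ± 0.722. Zfp142/Bcs1l, with an assembly factor of respiratory complex III, lay at 98.2 ± 0.606.

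Atm/Npat joins a DNA damage kinase to an activator of histone genes and lay at 96.5 ± 0.599, next to Gart/Son, an enzyme of purine synthesis and a splicing factor, at 96.4 ± 1.04. Recql4/Lrrc14, with a DNA helicase, had 94.3 ± 1.51, Wrap53/Trp53, with the p53 tumour suppressor, 93.4 ± 1.83, and Mrps12/Sars2, both of the mitochondrial translation machinery, 93.3 ± 1.01. Sdhd/Timm8b, a subunit of succinate dehydrogenase and a mitochondrial import chaperone, had 86.4 ± 2.83 and Tsc2/Nthl1, a brake on mTOR signalling and a base excision repair enzyme, 85.2 ± 3.45, the lowest of the 11. Col4a4/Col4a3, which encode basement membrane collagen chains, was the exception: no library called it, and the nearest peak lay 7748 to 8048 bp from the region.

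The ends of the scale were apart. Hjurp/Trpm8 (a centromere histone chaperone and a cold-sensing channel), Mms19/Ubtd1, Ttc9c/Hnrnpul2, Rita1/Ddx54 and Mphosph9/2810006K23Rik had the highest mean percentiles, all above 99.9. Of pairs called in all 8 libraries the lowest was Duox2/Duoxa2, an oxidase and its maturation factor, whose percentiles at 37 °C were 45.1, 39.4, 29.3 and 44.7 and at 39 °C 19.0, 4.42, 26.3 and 4.64. All 4 values at 39 °C lay below those at 37 °C in the whole list, but the ranks among promoters overlapped and the pair did not pass (limma adjusted p = 0.346). Gpc2/Stag3 and Gm43720/Stag3, which share a peak and whose Stag3 encodes a meiotic cohesin subunit, had a mean of 43.7, Ptchd1/Gm15155 44.2 and Klc3/Ckm, with muscle creatine kinase, 44.7. The widest peaks lay over Rnf166/Ctu2 (12786 ± 5773 bp), Ddx5/Cep95 (11946 ± 3546 bp) and Sqstm1/Mgat4b (10330 ± 8236 bp), and their SDs show how much a wide peak changed between libraries. The narrowest were those over Stag3 (788 ± 157 bp) and Klc3/Ckm (905 ± 318 bp).

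Of the 29 uncalled pairs, 3 were in the list of tissue-restricted families, which held 9 of the 754 pairs, and the rest were outside that list. Leaving out pairs predicted on both sides, the 5 with the closest ends were Col4a4/Col4a3 (72 bp), Il11/Tmem190 (78 bp), Patl2/Terb2 (83 bp), Zfp558/Mbd3l1 (91 bp) and Fam217a/4933417A18Rik (99 bp). Il11 encodes a cytokine and Terb2 acts in meiosis. For 24 of the 29 no library had a peak within 1000 bp of the region, and the median distance to the nearest peak was 13912 bp. The imprinted Peg3/Usp29 pair, named after its values were seen, had a peak within 1000 bp in 3 libraries at 37 °C and in 1 at 39 °C. Of the 20 pairs on chromosome X, 6 were uncalled, beside 29 of the 754 pairs on all chromosomes. Single promoters on chromosome X were not counted apart, so the share for that chromosome as a whole is not known.

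The share of pairs called was lower at 39 °C, by little. It was 95.7 ± 0.199% at 37 °C and 94.9 ± 0.199% at 39 °C (mean ± SD of 4 libraries each), a difference of −0.862 points in which the groups did not overlap (two-sided exact permutation p = 0.0286, the lowest possible with 4 against 4). That is 6.5 pairs on average. Single promoters differed by −4.69 points, and the gap between the classes was 3.83 points wider at 39 °C (exact permutation test of the difference of differences, p = 0.0286). The lists at 39 °C were also shorter. With the same number of peaks taken from each list the difference for pairs was −0.5305 points and the gap 1.36 points, and with single promoters weighted by CpG content the gap was 2.28 points (exact permutation p = 0.0286 for each). Single promoters with a partner gene of another type differed by −1.95 points, and the gap to them was 1.08 points wider at 39 °C (exact permutation p = 0.0286 for each). When the summit of a peak had to lie in the region, the difference for pairs was 0.332 points in the other direction and did not pass (exact permutation p = 0.257). Without the 2 deepest libraries it was −0.696 points, with an exact permutation p of 0.0667, the smallest that 2 against 4 allow. The median percentile of pairs was lower at 39 °C by 1.64 points and that of single promoters by 2.07 (exact permutation p = 0.0286 for each), and the gap between them differed by 0.427 points, which did not pass (exact permutation p = 0.114). A percentile depends on the length of the list, and every list at 39 °C was shorter than every list at 37 °C. Percentiles were not recomputed in lists of equal length, so the part of list length in these differences was not tested. The excess of pairs in width went from 390 to 320 bp and that in the share among the top 10% from 28.6 to 24.0 points (exact permutation p = 0.0286 for each interaction). In proportion the classes differed alike. Median width differed by −13.3% for pairs and −12.5% for single promoters, and the top 10% share by −14.4 and −13.4%. Over single promoters with a partner gene of another type, the excess in width was 29 bp at 37 °C and 29.4 bp at 39 °C. The top 10% of a shorter list also holds fewer peaks. For pairs themselves the difference in median width, −350.75 bp, did not pass (exact permutation p = 0.0857). The share of summits between the ends, 39.8 ± 1.83% and 39.4 ± 0.522%, differed by less than the spread between libraries (exact permutation p = 0.771).

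Only 3 pairs (0.398%) were called in all 4 libraries at 37 °C and in none at 39 °C, against 1.51% of all coding promoters scored, and 0 in all 4 at 39 °C and none at 37 °C, against 0.0201%. The share called only at 37 °C was similarly low in the classes most like pairs. It was 0.354% for single promoters with a partner gene of another type and 0.219% for head-to-head pairs. Nr2e1/Ostm1, with a nuclear receptor of neural stem cells, had percentiles of 7.64, 10.3, 8.33 and 9.59 at 37 °C, near the bottom of each list, under peaks 602 to 815 bp wide. Sncg/Mmrn2, with γ-synuclein, had percentiles of 39.1, 35.8, 29.3 and 44.1 at 37 °C. Best1/Rab3il1, with a chloride channel of the retinal pigment epithelium, had 53.7, 43.6, 49.3 and 59.3.

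For Best1/Rab3il1 and Sncg/Mmrn2 the peak reached into the region from the side: the summit lay outside it in each library, by a median of 570 bp and 316.5 bp, and in Nr2e1/Ostm1 it lay inside but not between the ends. Of the 12 pairs called in some libraries, 11 were called in more libraries at 37 °C (91.7%) and 0 in more at 39 °C. Among partly called single promoters the share with more libraries at 37 °C was near that, at 92.4% of 1831. The other pair, Rnf151/Rps2, was called in 3 libraries of each group, under a peak 6681 to 7415 bp wide whose summit lay a median of 1331 bp outside the region. Pecam1/Milr1, with an endothelial adhesion molecule, was called in 4 libraries at 37 °C and 2 at 39 °C, and Nisch/Sema3g in 4 and 3. Lrrc63/Lcp1 was called in 3 at 37 °C and 0 at 39 °C, with percentiles of 3.46 to 11.8.

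Since nearly all pairs were called throughout, the temperatures were also compared by rank. Among the 10192 coding promoters called in all 8 libraries, each library's −log10 q values were ranked and turned into normal scores, and the scores were compared by limma with Benjamini-Hochberg adjustment over all 10192. A score difference is thus a change of place relative to other promoters, in SD units, and not a change in accessibility as such. The promoter percentile is the place among these 10192. Of 713 pairs, 76 passed at an adjusted p under 0.05 (10.7%), against 16.3% of all promoters tested. The rank was higher at 39 °C for 31 pairs (4.35%, background 8.47%) and lower for 45 (6.31%, background 7.87%). The ranks of the 2 groups did not overlap for 128 pairs (18%), against 23% of all promoters. At an unadjusted p under 0.05 there were 185 pairs (25.9%), against 32.9% of all promoters, and the median difference was 0.01 over pairs and 0.02 over all promoters.

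The count of 76 depended on the libraries and the scale. Without the 2 deep libraries 60 pairs passed (8.42%), against 8.78% of all promoters, a far narrower gap than 10.7 against 16.3%. Of these 60, 29 were higher and 31 lower at 39 °C, and 38 were among the 76. Without replicate 4 at 37 °C, 1 of the 2 deep libraries, it was 39, and 37 of the 76 passed without each of the 8 libraries in turn. On the log2 pileup centred on the median of each library, 146 pairs passed (20.5%, against 27.9% of all promoters), 65.1% of them higher at 39 °C, whereas 40.8% of the 76 were higher on ranks, and 56 pairs passed on both scales. The 10 pairs that passed with the largest differences, 5 in each direction, had the same direction and an adjusted p under 0.05 on both scales.

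Core histone pairs held the largest decreases among pairs that passed. Hist1h2ag/Hist1h2bj encodes histones H2A and H2B, which are made in S phase, on chromosome 13. Its promoter percentiles were 77.8, 73.1, 70.1 and 78.3 at 37 °C and 46.8, 49.4, 46.9 and 48.2 at 39 °C. The groups lay far apart, and the rank score fell by 0.73 ± 0.06 (SE; adjusted p = 0.000133). In Hist1h2ak/Hist1h2bn the mean percentile was 76.9 ± 3.91 at 37 °C and 51.6 ± 2.54 at 39 °C (mean ± SD of 4 libraries each), and the score fell by 0.70 ± 0.07 (adjusted p = 0.000289). In Hist1h2bl/Hist1h2ai it was 76.0 ± 4.81 and 51.4 ± 2.34, with a fall of 0.68 (adjusted p = 0.00054).

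Hist1h2ap/Hist1h2br went from 89.3 ± 5.30 to 75.7 ± 4.36 and fell by 0.58 (limma adjusted p = 0.0217), with a range over leaving out each library of 0.0108 to 0.0661, and it lost the call when replicate 4 at 37 °C, or replicate 1 or 4 at 39 °C, was left out. Of 14 pairs with a replication-dependent histone gene, 13 were tested, 10 were lower at 39 °C (76.9%, against 6.31% of all pairs and 7.87% of all promoters) and 0 higher, with a median difference of −0.48 over the 13, against 0.01 over all pairs. The 10 lie under 8 distinct peaks: Hist1h2ae/Hist1h2bg and Hist1h2bf/Hist1h2ad share 1, and so do Bola1/Hist2h2ab and Hist2h2ac/Hist2h2be. Hist1h2ae/Hist1h2bg and its neighbour lost the call without replicate 4 of either temperature.

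The 3 histone pairs that did not pass were Hist1h2an/Hist1h2bp (89.5 ± 1.70 and 88.2 ± 1.57, score difference −0.07, adjusted p = 0.421 by limma), Hist1h2ac/Hist1h2bc (86.9 ± 4.62 and 82.8 ± 3.19, −0.19, adjusted p = 0.243 by limma) and Hist1h2bq/Hist1h2ao (−0.54, adjusted p = 0.0506 by limma). The testis pair Hist1h2ba/Hist1h2aa was uncalled. Copies of these genes are nearly identical and reads may be placed on the wrong copy, so values of single histone pairs are uncertain. Histone peaks were wide, with a median over pairs of the mean width of 4253 bp, against 2502 bp over all pairs, and each of the 13 tested pairs had a CCAAT box within 250 bp on either side of its midpoint.

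Trmt6/Mcm8 had the largest decrease outside the histones among pairs that passed. Trmt6 is part of a tRNA methyltransferase, and Mcm8 is a helicase of homologous recombination. Its promoter percentiles were 76.6, 81.1, 81.6 and 84.5 at 37 °C and 57.0, 62.3, 65.6 and 63.5 at 39 °C, without overlap, and the score fell by 0.57 ± 0.07 (adjusted p = 0.00102). Among 57 pairs with a gene of DNA replication, repair or cell cycle, 56 were called in all 8 libraries and 1 in none. Of the 56 tested, 8 were lower at 39 °C and 2 higher, with a median difference of −0.01. The lower pairs are 14.3% of the list, against 6.31% of all pairs and 7.87% of all promoters, and the higher ones 3.57%, against 4.35 and 8.47%. Besides Trmt6/Mcm8, the lower pairs included Pxmp2/Pole (DNA polymerase ε, −0.35), Hscb/Chek2 (a checkpoint kinase, −0.33), Prpf38a/Orc1 (origin recognition, −0.26), Rad54l/Pomgnt1 (recombination, −0.24), Cenpx/Lrrc45 (−0.19) and Recql4/Lrrc14 (−0.14) on the score scale.

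Of these, Pxmp2/Pole, Prpf38a/Orc1, Rad54l/Pomgnt1 and Trmt6/Mcm8 passed without each library in turn. Cenpx/Lrrc45 lost the call only without 37 °C replicate 4, Hscb/Chek2 passed in 2 of the 8 settings and Recql4/Lrrc14 in 1. The higher pairs were Ift80/Smc4 (0.37) and Ssna1/Anapc2 (0.16), the latter of which passed in 2 of the 8 settings.

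The largest increase among pairs that passed was that of Hmmr/Nudcd2, in which Hmmr encodes a spindle-associated hyaluronan receptor. Its promoter percentiles were 64.5, 64.9, 59.0 and 67.4 at 37 °C and 77.2, 78.2, 78.7 and 78.6 at 39 °C, without overlap, and the score rose by 0.42 ± 0.05 (SE; adjusted p = 0.000994). Fam227a/Cby1, with an antagonist of β-catenin, rose from a mean of 71.1 ± 2.67 to 82.2 ± 4.03 (0.37 ± 0.08, adjusted p = 0.0135). Ift80/Smc4, a ciliary transport protein and a condensin subunit, rose from 61.5 ± 5.62 to 74.5 ± 3.51 (0.37 ± 0.08, adjusted p = 0.0159).

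Fam162a/Ccdc58, which both encode mitochondrial proteins, rose from 84.6 ± 1.22 to 90.8 ± 0.870 (0.31 ± 0.04, adjusted p = 0.00234), and Setd3/Ccnk, an actin methyltransferase and cyclin K, from 87.8 ± 2.50 to 93.0 ± 0.979 (0.31 ± 0.06, adjusted p = 0.0134). In each of these pairs the groups did not overlap and the call held without each library in turn. Of the 12 known pairs matched by symbol, all but the uncalled Col4a4/Col4a3 were tested. Recql4/Lrrc14 alone passed (72.9 to 68.1, limma adjusted p = 0.0453), beside 10.7% of all pairs and 16.3% of all promoters. Tsc2/Nthl1 missed with an adjusted p of 0.0704 and Wrap53/Trp53 with 0.108.

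**Figure D4:**
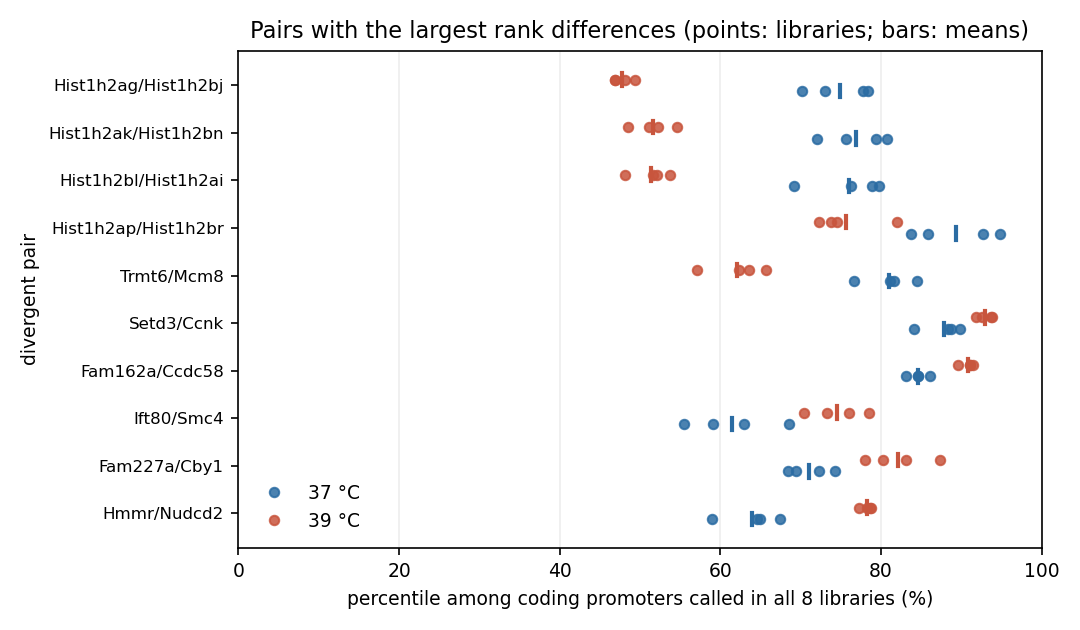
Promoter percentile, the place of the pair's peak among the 10192 coding promoters called in all 8 libraries, for the 5 pairs with the largest rank differences in each direction among those past the threshold. Points are libraries (blue 37 °C, red 39 °C) and bars are group means. The histone pairs and Trmt6/Mcm8 lie to the left at 39 °C, Hmmr/Nudcd2 goes from 63.9 to 78.2, and the groups do not overlap in any of the 10.

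In the 7 further lists with at least 20 pairs tested, 0 to 17.2% of the tested pairs passed, beside 10.7% of all pairs and 16.3% of all promoters. All 52 pairs with a mitochondrial protein were called in all 8 libraries, with a median of the mean percentile of 91.6 against 93.3 over all pairs. Of the 52, 4 were higher at 39 °C and 1 lower, with a median difference of 0.02. The higher ones were Uqcrq/Gdf9 (complex III, 0.26), Mrpl32/Psma2 (0.23), Sdha/Ccdc127 (complex II, 0.16) and Fam126b/Ndufb3 (complex I, 0.16), of which Uqcrq/Gdf9 passed without each library in turn. The lower one was Mrpl41/Pnpla7, at −0.35. Slc25a32/Dcaf13 ranked highest by mean percentile (99.6), followed by Mrpl41/Pnpla7 (99.2) and Mrpl40/Hira (98.9).

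Pairs of RNA processing and transcription were called in 61 of 61 cases, with 2 higher, 3 lower and a median difference of 0.04. Ttc9c/Hnrnpul2, Rita1/Ddx54 and Cbx5/Hnrnpa1 led them in percentile. Of 22 translation pairs, 21 were called in all 8 libraries and 0 of the 21 passed (median 0.04), with Eef1d/Tigd5, Txndc9/Eif5b and Atp6v1d/Eif2s1 ranking highest. All 20 chaperone pairs were called in all 8. The top ones were Tecr/Dnajb1 (99.8 ± 0.0164), Hsp90b1/Ttc41 (99.6 ± 0.227) and Hspa14/Cdnf (99.4 ± 0.269). Of the 20, 1 was higher at 39 °C, Bag5/Apopt1 (0.22), which passed in 4 of the 8 settings with a library left out. The median difference was 0.02.

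For the proteasome and ubiquitin, 24 of 25 pairs were called in all 8, with 1 higher and 2 lower (median 0.0033), led by Usp5/Cdca3, Fbxo24/Lrch4 and Fbxo24/Gm20605. Of 30 membrane traffic pairs 29 were called in all 8, with 2 higher and 3 lower (median −0.01), with Arl3/Sfxn2 and Tmed5/Ccdc18 among the highest in percentile. Of 23 pairs with a C2H2 zinc finger gene 22 were called in all 8 and 0 of the 22 passed (median 0.04), led by Zfp91/Lpxn, Zfp319/Usb1 and Zfp654/Cggbp1. For all 10192 promoters tested, the median was 0.02.

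The remaining lists held few pairs. Genes of tissue-restricted families occurred in 9 pairs, of which 5 were called in all 8 libraries and 3 in none. Of the 5 tested, 1 was higher at 39 °C (Nt5c3/Vmn1r4), beside 4.35% of all pairs and 8.47% of all promoters. Nt5c3/Vmn1r4 passed in 6 of the 8 settings with a library left out. Adam9/Tm2d2 and Cd3eap/Ppp1r13l were among the 9 pairs by name. Such families made up 2099 single promoters, of which 106 (5.05%) were called in all 8. The 3 pairs that matched the list of ion channels, receptors and synapse genes by symbol alone, Nlgn2/Tmem256, Grik5/Zfp574 and Cfap52/Stx8, were called in all 8, and 0 of the 3 passed. They stood at mean percentiles of 98.7, 78.0 and 71.1. The collagen list matched 2 pairs, the uncalled Col4a4/Col4a3 and, by its symbol alone, Polk/Col4a3bp, which encodes a ceramide transporter and not a collagen.

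**Figure D5:**
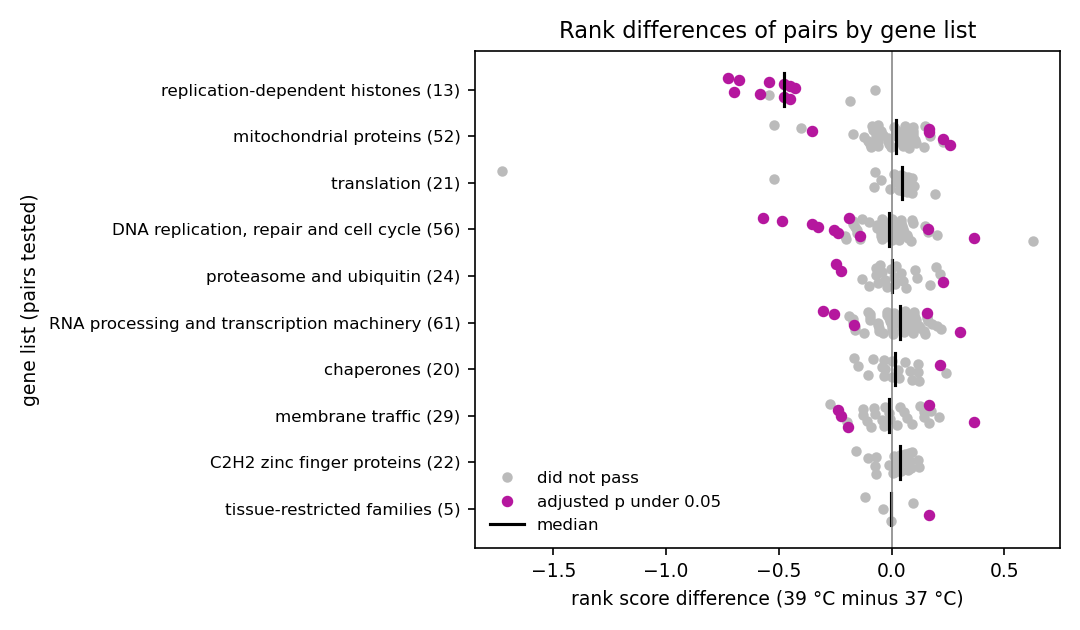
Difference in rank score, 39 °C minus 37 °C, of each divergent pair tested, by gene list, for lists with at least 5 pairs tested. Coloured points passed at an adjusted p under 0.05, grey points did not, and black bars are medians. The histone pairs lie to the left with a median of −0.48, and the other medians lie between −0.01 and 0.04.

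Rank also moved where a peak merged with its neighbour. Over Iqcg/Rpl35a, with a ribosomal protein gene, the promoter percentiles were 97.8, 99.0, 31.8 and 98.5 at 37 °C and 41.5, 42.7, 37.0 and 44.9 at 39 °C. In the 3 high libraries the peak was 8671 to 8876 bp wide with its summit 5571 to 5576 bp outside the region, and in the other 5 it was 1909 to 3032 bp wide with its summit inside. The score difference was the widest of any pair in the lists, −1.73, and did not pass (limma adjusted p = 0.0549). Of the 713 pairs, 672 had the summit in the region in all 8 libraries, 25 in some and 16 in none.

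Letter matches to factor motifs set pairs apart from single promoters, as a description without a test. The window around the midpoint of a pair mostly holds both gene ends, and that of a single promoter only its own. The shares, weighted by CpG content or not, were not adjusted for this. The ETS motif CCGGAAG occurred within the same window in 33.6% of pairs, 12.3% of single promoters, and 20.2% of single promoters weighted to the CpG content of pairs (13.1% of all promoters). The NRF1 motif GCGCNTGCG occurred in 26.0, 8.94 and 16.8% of these sets (9.59% of all), and the YY1 motif AAGATGGCG in 7.43, 2.31 and 4.34% (2.50% of all). The BANP motif TCTCGCGAG was found in 3.45, 0.840 and 1.69% (0.938% of all), and the ZNF143 motif ACTACAA in 7.03, 4.68 and 4.44% (4.77% of all). These 5 were more frequent in pairs also after the weighting.

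The GC box GGGCGG was present in 78.4% of pairs, 49.8% of single promoters and 79.0% of weighted single promoters (50.9% of all), so the weighting removed its excess. The TATA box TATAAA was scarcer in pairs, at 6.63% against 17.6% and, weighted, 9.18% (17.2% of all). CCAAT was found in 53.3, 48.8 and 44.0% (49.0% of all). Among changed pairs CCAAT occurred in 32 of the 45 with a lower rank (71.1%) and 14 of the 31 with a higher rank (45.2%), against 53.4% of the 713 tested. Without histone pairs it was 22 of 35 lower pairs (62.9%) against 52.6% of 700. As the sequences above show, the interval of Hist1h2ag/Hist1h2bj held 5 CCAAT boxes and so did that of Hmmr/Nudcd2, whose ranks differed in opposite directions.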

How the data were processed

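ATAC-seq peak lists of 8 SN4741 libraries were analysed, 4 at 37 °C and 4 at 39 °C, grouped by the labels. Per the submitters' processing notes and the study's methods, the authors aligned paired reads to mm10 with Bowtie2 2.4.1, sorted and removed duplicates with SAMtools 1.15.1 and Picard 2.26.11, and called peaks in each library separately with MACS3 3.0.0a7, with 1 genome-wide background, no control and q 0.05, keeping 1 fragment per position. The deposited lists give each peak's pileup, a signal counted in fragments without scaling for depth, the fold enrichment as a ratio to the background, and p-values and q-values as −log10. The p-values and the ratio were not used here. Peaks are numbered without gaps, so the lists show no sign of the removal of blacklisted regions that the methods describe. Depth was 49.8 to 169 M fragments. The lists hold no read counts, so the count test of the study was not run.

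Gene ends came from GENCODE M21, sequence from the GRCm38 (mm10) reference. A region was called where a peak overlapped it by 1 bp. The percentile was the mid-rank of the peak's −log10 q in its list. Values per library were compared by exact permutation tests, two-sided, over 70 assignments between temperatures and 256 sign changes within libraries. Ranks of promoters were compared with limma 3.58.1 in R 4.3.3 and checked on simulated data. Pairs were named by rule: known pairs, the 5 highest and 5 lowest percentiles, temperature-restricted pairs, the 5 largest rank differences each way, the 3 widest and 3 narrowest, the 5 uncalled with the closest ends, and the top 3 of each of 12 gene lists, leaving out pairs predicted on both sides. Some pairs that the rule names are not reported here. Lists match gene symbols by pattern. Members, lists and tests were chosen with earlier results of these data known. Alternatives covered the threshold, list length, distance, summit, window, depth, comparison set, rank scale and each library left out. Using 1 pair per group of overlapping regions was added after seeing the data.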

Additional observations from a re-analysis of the deposited data

Results flagged for a closer look

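The share of pairs called in 39 °C replicate 4 was 94.562%, or 713 pairs, and stood apart from the other 3 libraries at 39 °C, which each called 716 (94.96%). The gap is 3 pairs and looks large only because the other 3 counts are equal. It was the only outlying library among the 22 sets of 4 libraries examined, and chance gives about 1 in 20. This library also had the shortest peak list, with 54845 peaks.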

How the results depend on the processing

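Pairs exceeded single promoters in share called, width and percentile under each alternative run. Leaving out each library in turn gave differences of 40.817 to 41.726 points in share, 345.86 to 364.93 bp in width and 5.4343 to 5.587 points in percentile. With single promoters weighted by CpG content they were 11.4 points, 233 bp and 3.25 points. Of the temperature differences, the share of pairs called was 0.332 points with the summit in the region (exact permutation p = 0.257) and −0.696 points without the 2 libraries over 100 M fragments, where the smallest p is 0.0667, and −0.93943 to −0.7626 without each library. In the same order of settings without the deep libraries and without each library, the percentile differed by −1.25 and by −1.8272 to −1.3602 points, and the gap between pairs and single promoters by 2.86 and by 3.3902 to 4.2108 points. In each of these settings every list at 39 °C was still shorter than every list at 37 °C. Leaving libraries out therefore does not remove list length from the percentile. With every list cut to the length of the shortest, the share of pairs called differed by −0.5305 and the gap by 1.36 points, and with CpG weighting the gap was 2.28 points, each still with an exact permutation p of 0.0286. Pair width differed by −454.54 to −268.71 bp without each library and passed only without 37 °C replicate 3 (−455 bp, exact permutation p = 0.0286). The share of summits between the ends ranged from −1.0336 to 0.40809 points and changed sign without 37 °C replicate 3 (0.408). With the replicate number as a block (replicate block), the share of pairs called differed by −0.862, the percentile by −1.64 and the gap by 3.83 points, each with an exact p of 0.125, the smallest that 4 pairs of libraries allow, and 64 pairs changed rank. The libraries share only a number: deviations of same-numbered libraries correlated by 0.18, −0.07, 0.31 and −0.14, and not every library correlated best with its own number. Pairs with a changed rank numbered 76, 133 with head-to-head pairs counted too (75 of the 713 divergent pairs passed in that fit), 146 on log2 pileup, 60 without the 2 deep libraries (8.42%, against 8.78% of all promoters, with 29 higher, 31 lower and 38 among the 76), 367 on the percentile in the whole list (366 of them lower at 39 °C, where the median of all promoters shifts by −0.16), and 39 to 89 without each library, the 39 without 37 °C replicate 4. Pairs called only at 37 °C numbered 3 to 4 without each library, and 0 were called only at 39 °C in each of these. Of 141 recomputed values with a test, 132 kept their direction and their side of the threshold, and of 44 recomputed counts, 40 stayed within 1.5 times. Both libraries over 100 M fragments are at 37 °C, and the part of depth in peak width and in the rank of merged peaks was not tested beyond leaving them out. Peak lists give no counts, and a change of rank is relative to other promoters.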
